A study of Homo sapiens with 12 samples.

Results

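Desmosomes are the junctions that rivet neighbouring keratinocytes to each other, and 10 genes that encode their parts were followed here: the desmogleins DSG1, DSG2 and DSG3, the desmocollins DSC1, DSC2 and DSC3, desmoplakin (DSP), plakoglobin (JUP) and the plakophilins PKP1 and PKP3. The members were found by their gene name among the 58735 genes of the count table, and all 10 passed the filter that kept 16618 genes for testing, a mean raw count of at least 10. Polyadenylated RNA of HaCaT and TIGK was sequenced in 12 libraries, 3 in each of 4 groups. HaCaT is a spontaneously immortalized line of skin keratinocytes and TIGK a telomerase-immortalized line of gingival keratinocytes. Each line was left untreated (control) or received 5 mM H2O2 for 3 h, and both were kept in DermaLife K Keratinocyte Complete Medium and grown to confluency. The labels name no further allele or agent. In the treatment label the formula ends in another digit for replicates 2 and 3 of both treated groups, while the protocol gives H2O2 for all of them. Each tissue is represented by 1 line, so that skin against gingiva and one line against the other cannot be told apart.

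In a desmosome, the desmogleins and desmocollins are calcium-dependent cadherins that bind across the gap between cells. Their tails hold plakoglobin and the plakophilins, and these armadillo-repeat proteins hold desmoplakin, which anchors the keratin filaments. In stratified epithelium DSG2, DSC2 and DSG3 are known as genes of the deeper layers, whereas DSG1 and DSC1 mark cells that have moved up and begun to differentiate.

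The libraries held between 30426401 and 49034244 counts. Levels are given as normalized counts, which are raw counts scaled to the mean library size with TMM (trimmed mean of M-values) factors. A gene was called when its edgeR adjusted p was under 0.01 over all genes tested, the limit that the study used. The labels do not say that the replicates came from separate cultures, so p-values measure only the spread between these samples. Keratinocyte markers were detected in every group, 6 of 6 at a mean of at least 10 counts, and of 4 immune or endothelial markers none reached that mean in any group. In bulk RNA, fewer cells of a type and less RNA per cell cannot be told apart.

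**Figure D1:**
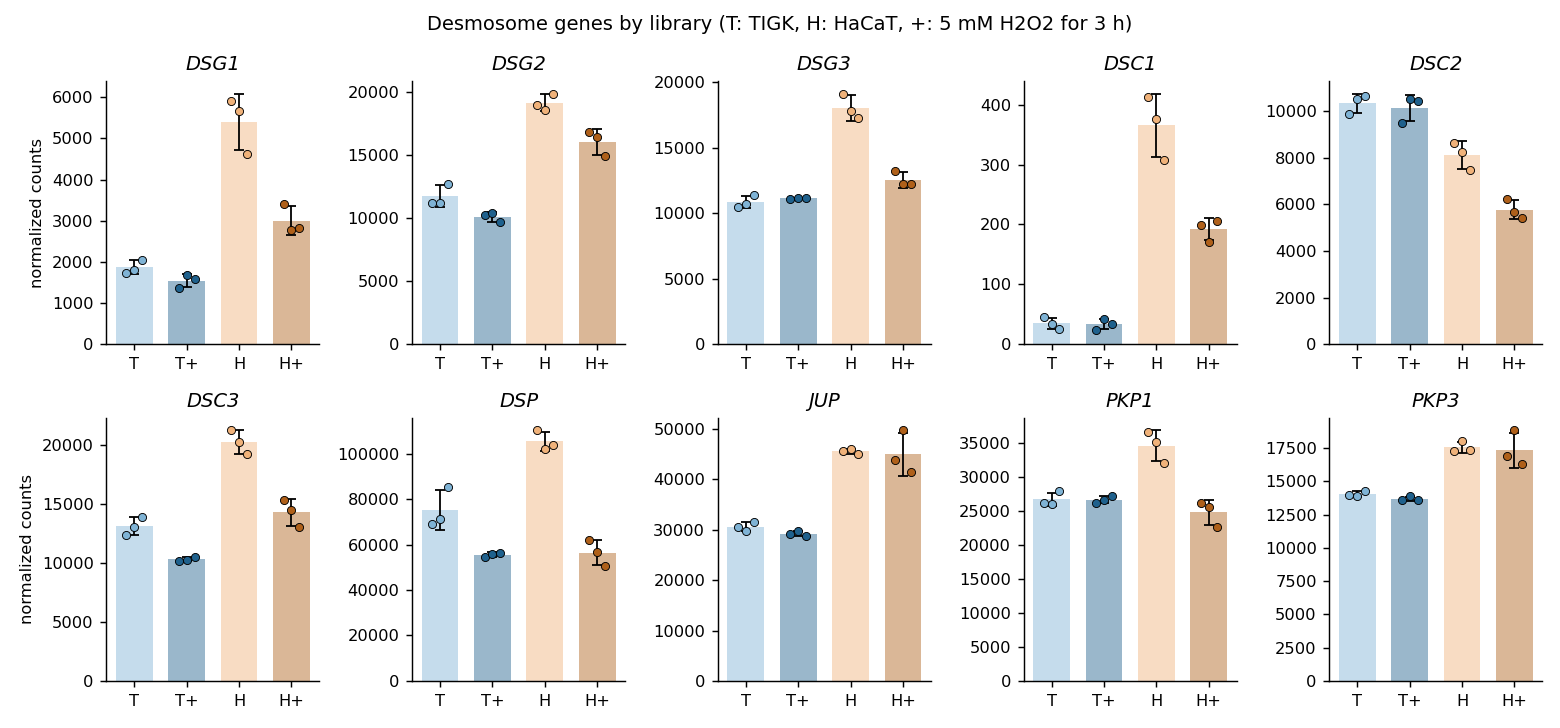
Normalized counts (vertical axes, each starting at 0) of the 10 desmosome genes in 12 libraries; points are libraries, bars group means and error bars SD (n = 3), with TIGK in blue, HaCaT in orange and H2O2-treated groups in the darker shade. DSP went from 102168 to 110316 down to 50683 to 62004 normalized counts in HaCaT, whereas JUP and PKP3 stayed at overlapping values in that line.

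In HaCaT, 8 of the 10 desmosome genes were downregulated after H2O2 and none was upregulated. The falls were largest in DSC1 (fell by 47.4%), DSP (fell by 46.4%) and DSG1 (fell by 44.5%), which are the 2 cadherins of differentiating cells and the keratin anchor. Over all genes tested, 15.2% were called lower and 18.9% higher in this comparison. The treated and untreated libraries did not overlap in 8 of 10 members, against 53.8% of all genes tested. The members' median log2 fold change was -0.50, and that of all genes 0.04.

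In TIGK, 2 of the 10 members were downregulated, DSP (fell by 26.2%) and DSC3 (fell by 21.2%), and none was upregulated. Among all genes tested, 12.9% were called lower and 10.2% higher. The groups did not overlap in 6 of 10 members, where 51.1% of all genes did not. The members' median log2 fold change was -0.06, and that of all genes 0.01. When the TIGK groups were fitted alone, 4 members were called, with DSG2 (log2 fold change -0.22, edgeR adjusted p = 0.00581) and DSG1 (log2 fold change -0.28, edgeR adjusted p = 0.00965) as the added ones.

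The difference between the responses of the lines was itself tested, as the log2 fold change in TIGK minus that in HaCaT. It was called for DSG3, PKP1, DSC2 and DSP, each of which had the lower fold change in HaCaT, and for none in the other direction. Of all genes tested, 2.32% were called with a higher and 2.98% with a lower fold change in TIGK. That balance was not stable, since higher calls were 43.7% of the called genes here, 52.0% with the size factors of DESeq2, 59.7% with no filter on low counts and from 36.7% (without HaCaT H2O2 replicate 3) to 66.6% (without TIGK H2O2 replicate 3) when 1 library was left out. Without HaCaT control replicate 1 or without HaCaT control replicate 2, only DSG3 and PKP1 were called, so that 2 of the 4 rested on these libraries.

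Untreated HaCaT and TIGK differed in all 10 members. HaCaT exhibited higher levels of 9, from PKP3 at 1.25-fold to DSC1 at 10.4-fold, and TIGK the higher level of DSC2. All genes tested were called higher in HaCaT in 29.1% and lower in 30.8%. None of the 10 members overlapped between the untreated lines, as was the case for 73.3% of all genes. With HaCaT over TIGK, the median log2 fold change was 0.60 over the members and -0.01 over all genes.

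After H2O2, 7 members were higher in HaCaT and DSC2 was again lower, while DSP and PKP1 were not called. Of the 7, DSG3 lost its call with DESeq2 and without any 1 treated library other than HaCaT H2O2 replicate 3. In this comparison 30.2% of all genes tested were called higher in HaCaT and 29.8% lower. The lines did not overlap in 9 of 10 members and in 71.3% of all genes. The members' median was 0.41 and that of all genes 0.02. The 5 comparisons share libraries with each other, since each control or treated group enters more than 1 of them.

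**Figure D2:**
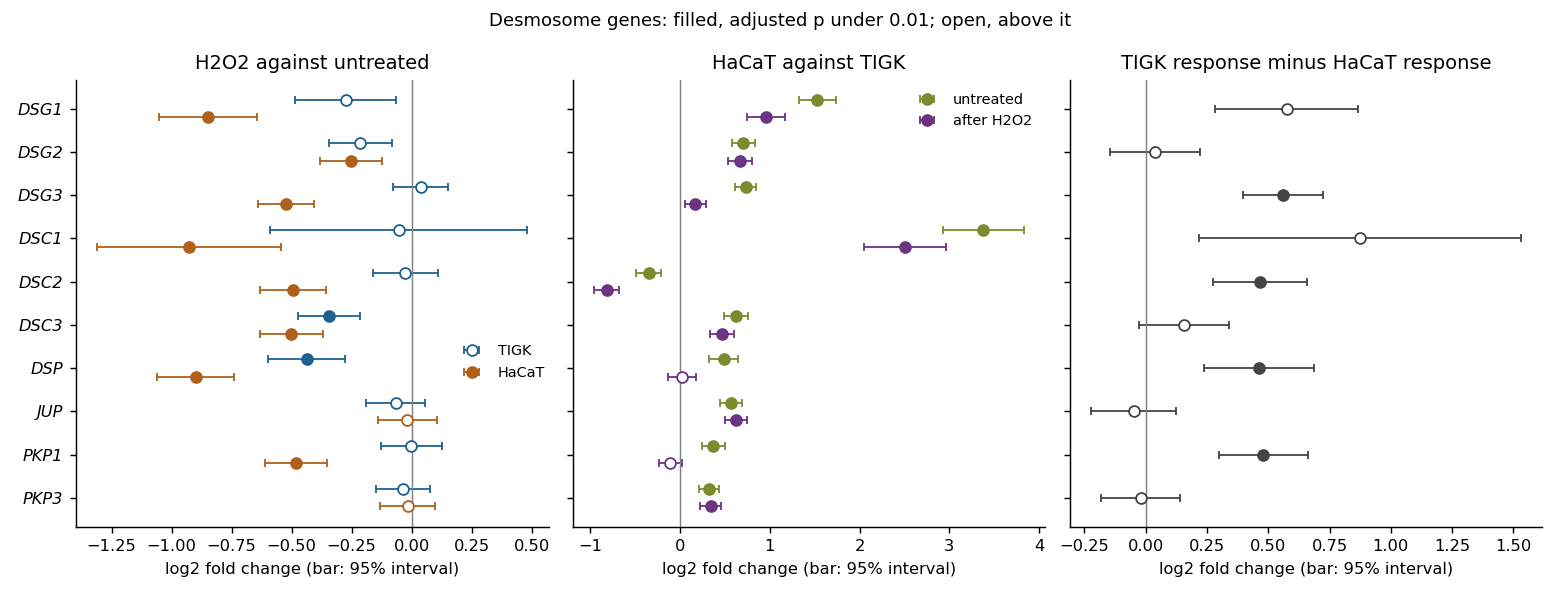
Log2 fold changes with 95% intervals (horizontal axes) of the 10 desmosome genes for H2O2 against untreated in each line, for HaCaT against TIGK in each condition, and for the TIGK response minus the HaCaT response; filled points passed the adjusted p limit of 0.01. In HaCaT 8 of 10 points lie left of 0 and are filled, and only JUP and PKP3 are open, whereas in TIGK only DSC3 and DSP are filled.

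Among the desmogleins, DSG1 and DSG3 are those whose extracellular parts are the targets of pemphigus autoantibodies. DSG1, DSG2 and DSG3 lie in 1 cluster with the desmocollins on chromosome 18. DSG1, on the forward strand at chr18:31318089-31357029 (GRCh38), had 1739, 1812 and 2058 normalized counts in the untreated TIGK libraries and 1376, 1676 and 1580 after H2O2. In HaCaT it had 5919, 5670 and 4625 in controls and 3402, 2773 and 2827 after H2O2. The treated libraries lay below the untreated ones in both lines, and every HaCaT library lay above every TIGK library. DSG1 fell by 0.85 on the log2 scale in HaCaT (standard error 0.0971, edgeR adjusted p = 1.63e-06), and in TIGK its log2 fold change of -0.27 was not called (standard error 0.10, edgeR adjusted p = 0.0401). The difference between these responses, 0.58, was just short of the limit (standard error 0.139, edgeR adjusted p = 0.0108), and it passed with DESeq2 (adjusted p = 0.00116), with the size factors of DESeq2 in edgeR (adjusted p = 0.00810), with no filter on low counts (1.50e-08) and without any 1 of TIGK control replicate 3, TIGK H2O2 replicate 1, HaCaT control replicate 3 and HaCaT H2O2 replicate 1 (edgeR adjusted p from 0.000986 to 0.00839). DSG1 was 2.89-fold higher in untreated HaCaT than in untreated TIGK (log2 fold change 1.53, edgeR adjusted p = 7.01e-11) and 1.94-fold higher after H2O2 (0.96, edgeR adjusted p = 6.90e-08).

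DSG2, the most widely expressed desmoglein, at chr18:31498043-31549008, had small log2 fold changes in both lines. TIGK held 11226, 11192 and 12724 normalized counts without and 10271, 10386 and 9656 with H2O2. HaCaT held 18983, 18554 and 19865 without and 16850, 16441 and 14891 with H2O2. Neither line had overlapping groups. The log2 fold change was -0.21 in TIGK (standard error 0.0620, edgeR adjusted p = 0.0117) and -0.25 in HaCaT (standard error 0.0617, edgeR adjusted p = 0.00257), of which only the latter passed. The value in TIGK passed with DESeq2 (log2 fold change -0.21, adjusted p = 0.00751) and with the TIGK groups fitted alone (edgeR adjusted p = 0.00581), so that whether DSG2 was called in 1 line or in both depended on the tool and on the samples fitted. The HaCaT call did not hold without HaCaT control replicate 3 (edgeR adjusted p = 0.0165) or without HaCaT H2O2 replicate 3 (edgeR adjusted p = 0.0106). The responses differed by 0.04 (95% interval -0.14 to 0.22). DSG2 was 1.63-fold higher in untreated HaCaT (edgeR adjusted p = 5.87e-09) and 1.59-fold higher in treated HaCaT (edgeR adjusted p = 1.35e-08) than in TIGK of the same condition.

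DSG3, the desmoglein of basal and oral keratinocytes, at chr18:31447795-31478702, fell in HaCaT. It had 19150, 17790 and 17246 normalized counts in HaCaT controls and 13271, 12207 and 12236 after H2O2. In TIGK it had 10512, 10689 and 11389 in controls and 11095, 11194 and 11155 after treatment, so that the TIGK groups overlapped and the HaCaT groups did not. The log2 fold change was -0.52 in HaCaT (standard error 0.0550, edgeR adjusted p = 6.04e-07) and 0.04 in TIGK (95% interval -0.08 to 0.15). The responses differed by 0.56 (standard error 0.0777, edgeR adjusted p = 1.04e-04), the member with the smallest p for that difference. DSG3 was 1.66-fold higher in untreated HaCaT than in untreated TIGK (edgeR adjusted p = 6.28e-10). After H2O2 the lead of HaCaT was 1.13-fold (log2 fold change 0.17, edgeR adjusted p = 0.00909), a call that was lost with DESeq2 (adjusted p = 0.0197), with DESeq2 size factors (0.0325), with no filter on low counts (0.0405), with these groups fitted alone (0.0309), and without any 1 treated library other than HaCaT H2O2 replicate 3 (edgeR adjusted p from 0.0287 to 0.170).

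Promoter sequences of RefSeq (GRCh38.p14) were matched for 9 of the 10 members, with 11 promoters in all, and their 250 bases before the gene start were compared. The pair that aligned best among 53 pairs was DSG1 and DSG3, 2 desmogleins of the same cluster, with 94 of 136 aligned columns identical (69.1%). The part of that alignment that lies before the deposited start of DSG1 is printed because the 2 promoters align along it. It spans positions -178 to -72 before the start of DSG1 (chr18:31317982-31318088, forward strand) and -139 to -33 before that of DSG3 (chr18:31447602-31447708, forward strand), and capitals mark the 75 bases identical in the alignment.
DSG1: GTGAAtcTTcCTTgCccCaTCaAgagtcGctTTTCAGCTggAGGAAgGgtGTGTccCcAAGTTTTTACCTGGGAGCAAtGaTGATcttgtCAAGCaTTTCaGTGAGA
DSG3: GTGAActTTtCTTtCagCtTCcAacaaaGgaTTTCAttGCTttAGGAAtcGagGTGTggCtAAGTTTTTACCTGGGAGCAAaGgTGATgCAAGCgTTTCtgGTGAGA
The GC content of the 250 bases was 42.8% in DSG3, 48% in DSG1 and 52% in DSC1, and between 59.6% and 78% in the other 8 promoters. A few motifs were searched on both strands of the 11 windows. The core promoter motif TATAAA, found in 10.7% of 35116 promoters, had no match in them. The AP-1 motif TGANTCA (6.57% of all promoters) had none either. No match was found for the grainyhead-like motif AACCGGTT (0.117% of all promoters). The letters CACCC, in 54.7% of all promoters, were in 11 of 11 windows. The GC box GGGCGG (42.6% of all promoters) was in 6. The E-box CANNTG (61.8% of all promoters) was in 6 as well, and matches of these motifs can overlap. A match is a description of the letters only.

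The desmocollins are the partner cadherins of the desmogleins. DSC1, which marks the upper layers, at chr18:31129236-31162856 on the reverse strand, had the lowest counts of all members. TIGK controls held 44.7, 34.2 and 26.1 normalized counts and treated TIGK 24.4, 41.9 and 34.0, from 21 to 44 raw counts a library. HaCaT controls held 413, 376 and 308, and treated HaCaT 199, 171 and 206. The TIGK groups overlapped fully, and in HaCaT every treated library lay below every control. DSC1 fell by 0.93 in HaCaT on the log2 scale (standard error 0.182, edgeR adjusted p = 4.31e-04). In TIGK its log2 fold change of -0.05 had a 95% interval from -0.59 to 0.48 and changed sign without TIGK control replicate 1 or TIGK H2O2 replicate 1, so that a change of the size seen in HaCaT lay outside that interval but smaller ones could not be seen at this depth. The difference between the lines, 0.87, was not called (standard error 0.313, edgeR adjusted p = 0.0789). HaCaT exceeded TIGK 10.4-fold untreated (log2 fold change 3.38, edgeR adjusted p = 5.81e-11) and 5.67-fold after H2O2 (2.50, edgeR adjusted p = 5.60e-09). The antisense gene AC012417.1 overlaps DSC1 and had up to 10 counts, at most 14.0% of the DSC1 count of the same library, and the strand setting of the counting is not given in the sources used here.

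DSC2, at chr18:31058840-31102522 on the reverse strand, is the desmocollin of simple and basal epithelia and the one member with more counts in TIGK when both lines were untreated. Its normalized counts were 9871, 10502 and 10653 in TIGK controls, 9499, 10528 and 10421 in treated TIGK, 8620, 8266 and 7482 in HaCaT controls and 6216, 5675 and 5421 in treated HaCaT. The TIGK groups overlapped, the HaCaT groups were apart, and each HaCaT library lay below each TIGK library. DSC2 fell by 0.49 in HaCaT on the log2 scale (standard error 0.0654, edgeR adjusted p = 8.61e-06), against a log2 fold change of -0.03 in TIGK (95% interval -0.16 to 0.11) that turned positive with no filter on low counts and without TIGK control replicate 2 or TIGK H2O2 replicate 1. The responses differed by 0.47 (standard error 0.0920, edgeR adjusted p = 0.00261), a call lost without HaCaT control replicate 1 (edgeR adjusted p = 0.0117) or 2 (edgeR adjusted p = 0.0101). In HaCaT over TIGK the log2 fold change was -0.35 untreated (edgeR adjusted p = 9.59e-05) and -0.81 after H2O2 (edgeR adjusted p = 1.71e-09).

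DSC3, the main desmocollin of stratified epithelium, at chr18:30990008-31042815 on the reverse strand, was downregulated in both lines. In TIGK it went from 12342, 13065 and 13859 to 10158, 10273 and 10501 normalized counts. HaCaT controls had 21218, 20216 and 19194, and treated HaCaT 15338, 14449 and 13070. The groups were apart in each line. DSC3 fell by 0.34 in TIGK (standard error 0.0623, edgeR adjusted p = 2.91e-04) and fell by 0.50 in HaCaT (standard error 0.0622, edgeR adjusted p = 4.11e-06) on the log2 scale, and the difference of 0.16 was not called (95% interval -0.03 to 0.34). HaCaT had 1.54-fold more untreated (edgeR adjusted p = 3.50e-08) and 1.39-fold more after H2O2 (edgeR adjusted p = 1.74e-06).

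**Figure D3:**
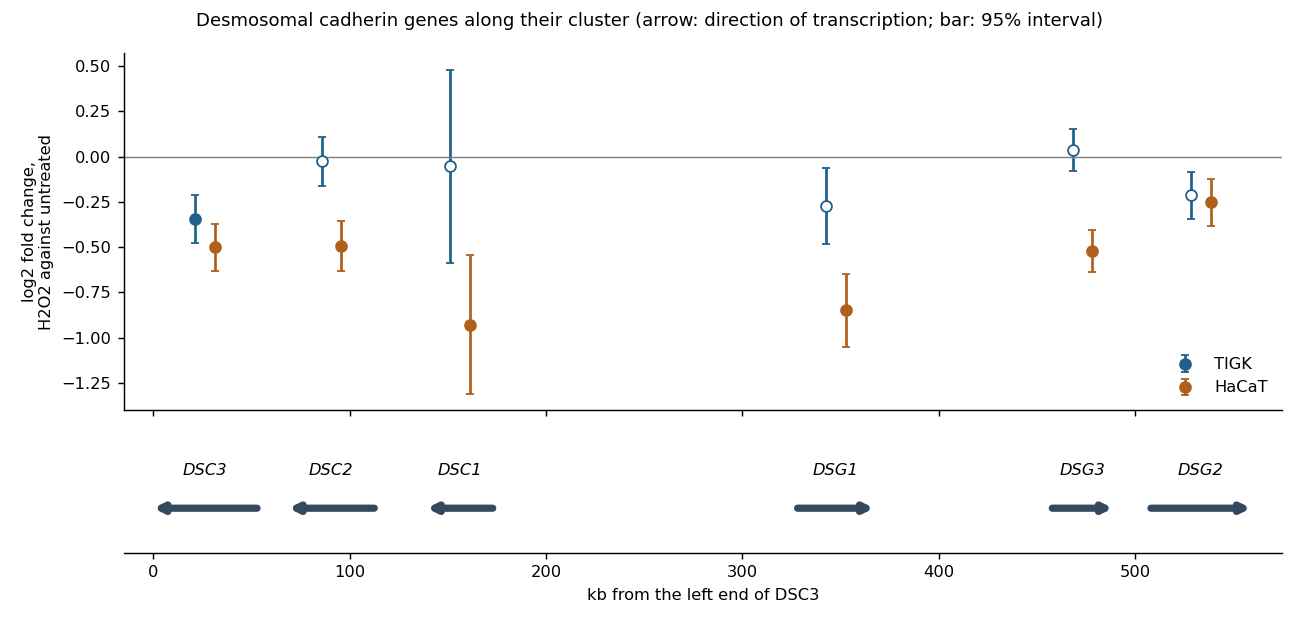
Log2 fold changes after H2O2 with 95% intervals (upper panel) of the 6 desmosomal cadherin genes at their positions along the cluster in kb from the left end of DSC3 (lower panel; arrows give the direction of transcription); points of a gene are set apart sideways for legibility and filled where called. The orange HaCaT points of all 6 genes are below 0 and filled, whereas among the blue TIGK points only DSC3 is filled.

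All 6 cadherin genes among the members lie within 1 cluster. In it these desmocollins are transcribed from the reverse strand and these desmogleins from the forward strand. Each of the 6 was called lower after H2O2 in HaCaT, with log2 fold changes between -0.93 and -0.25. DSC1 and DSG1, which are neighbours in the middle of the cluster, had the lowest values in HaCaT, and DSG2 at its edge the value closest to 0. In TIGK the log2 fold changes ran from -0.34 in DSC3, at the other edge, to 0.04 in DSG3.

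Desmoplakin joins the junction to the keratin network, and DSP (chr6:7541575-7586717, forward strand) had the highest counts of the members. TIGK controls had 68847, 71289 and 85360 normalized counts, and treated TIGK 54365, 55659 and 56490. HaCaT controls had 110316, 102168 and 103858, and treated HaCaT 62004, 56826 and 50683. The treated groups lay below the controls in each line, while the treated groups of the lines overlapped with each other. DSP fell by 0.44 in TIGK (standard error 0.0757, edgeR adjusted p = 1.86e-04) and fell by 0.90 in HaCaT (standard error 0.0762, edgeR adjusted p = 3.76e-08) on the log2 scale. The difference of 0.46 was called (standard error 0.107, edgeR adjusted p = 0.00817), but not without any 1 of 7 libraries, TIGK control replicates 1 and 2, TIGK H2O2 replicates 1 and 2 and the 3 HaCaT controls (edgeR adjusted p from 0.0101 to 0.0279). HaCaT was 1.40-fold higher untreated (edgeR adjusted p = 1.20e-05). After H2O2 HaCaT over TIGK had a log2 fold change of 0.03 (95% interval -0.13 to 0.18), with a sign that turned to -0.0093 under DESeq2 and its size factors.

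The DSP promoter is printed as that of the member that was called lower in both lines with the larger fold in each. The stretch shown, chr6:7541421-7541574 on the forward strand (RefSeq, GRCh38.p14), covers positions -250 to -97 and ends before the deposited gene start. Capitals mark the 7 GC box matches on either strand, more than in any other of the 11 windows, and some of them overlap or adjoin.
DSP: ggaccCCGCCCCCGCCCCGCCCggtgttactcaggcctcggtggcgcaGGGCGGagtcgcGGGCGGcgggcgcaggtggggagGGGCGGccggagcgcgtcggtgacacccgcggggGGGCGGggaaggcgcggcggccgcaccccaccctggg

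Plakoglobin, the armadillo protein shared by desmosomes and adherens junctions, was among the members with no call after H2O2. JUP (chr17:41754604-41786931, reverse strand) had 30494, 29842 and 31593 normalized counts in TIGK controls, 29093, 29824 and 28849 in treated TIGK, 45727, 46013 and 45020 in HaCaT controls and 43811, 49768 and 41426 in treated HaCaT. The treated groups of HaCaT spread around their controls, and those of TIGK lay just below theirs. The log2 fold change was -0.07 in TIGK (95% interval -0.19 to 0.06) and -0.02 in HaCaT (95% interval -0.14 to 0.10), so that a fall of the size seen in DSP lay outside both intervals. JUP was higher in HaCaT, 1.49-fold untreated (edgeR adjusted p = 5.32e-08) and 1.54-fold after H2O2 (edgeR adjusted p = 1.71e-08).

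Plakophilins strengthen the plaque and bind desmoplakin, and the 2 genes behaved differently in HaCaT. PKP1 (chr1:201283452-201332993, forward strand), the plakophilin of stratified epithelium, had 36576, 35157 and 32119 normalized counts in HaCaT controls and 26185, 25535 and 22681 after H2O2. In TIGK it had 26254, 25982 and 27882 in controls and 26218, 26650 and 27190 after treatment. The HaCaT groups were apart, the TIGK groups overlapped, and each treated HaCaT library lay below each treated TIGK library. PKP1 fell by 0.48 in HaCaT on the log2 scale (standard error 0.0611, edgeR adjusted p = 5.22e-06). In TIGK the log2 fold change was -0.0010 (95% interval -0.13 to 0.13), with a sign that turned under both DESeq2 settings. The difference of 0.48 was called (standard error 0.0862, edgeR adjusted p = 0.00119). PKP1 was 1.30-fold higher in untreated HaCaT than in untreated TIGK (edgeR adjusted p = 2.15e-05), and after H2O2 HaCaT over TIGK had a log2 fold change of -0.11, which was not called (edgeR adjusted p = 0.131).

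PKP3 (chr11:392614-404908, forward strand), a plakophilin of most epithelia, showed no call after H2O2 in either line. Its normalized counts were 13973, 13881 and 14278 in TIGK controls, 13576, 13875 and 13620 in treated TIGK, 17287, 18023 and 17370 in HaCaT controls and 16891, 18844 and 16321 in treated HaCaT. The treated HaCaT libraries enclosed their controls, and the lines stayed apart in both conditions. The log2 fold change was -0.04 in TIGK (95% interval -0.15 to 0.08) and -0.02 in HaCaT (95% interval -0.13 to 0.10). PKP3 was higher in HaCaT, 1.25-fold untreated (edgeR adjusted p = 3.11e-05) and 1.27-fold after H2O2 (edgeR adjusted p = 1.57e-05).

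Taking the 10 members as 1 pool, they held from 0.515% to 0.594% of all raw counts in TIGK controls and from 0.469% to 0.484% in treated TIGK. In HaCaT their share was from 0.708% to 0.758% in controls and from 0.479% to 0.563% after H2O2. The treated ranges of these raw shares overlapped between the lines, whereas the untreated ranges did not. As summed normalized counts the treated lines did not overlap. These sums ran from 165677 to 170105 in treated TIGK and from 179762 to 204166 in treated HaCaT. DSP alone supplied the largest part of these sums.

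Per kilobase of the deposited gene length, the scale on which genes can be compared with each other, DSP stood first in untreated TIGK (7447 ± 883 normalized counts per kb, SD, n = 3) and in untreated HaCaT (10448 ± 426). JUP stood first after H2O2, with 5920 ± 103 against 5499 ± 106 for DSP in TIGK and 9106 ± 870 against 5598 ± 562 in HaCaT. The ratio of DSP to JUP went from 1.20 ± 0.112 to 0.929 ± 0.0256 in TIGK and from 1.13 ± 0.0471 to 0.617 ± 0.0687 in HaCaT. With the length of the MANE Select transcript, which for JUP is shorter, JUP stood above DSP in all 4 groups (ratios of DSP to JUP 0.885, 0.686, 0.836 and 0.455), so that the order depended on the length whereas the fall of the ratio did not.

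Below these 2 came PKP1 and PKP3, then DSG3, DSG2 and DSC3, and then DSC2 and DSG1, with DSC1 last in every group. DSG3, DSG2 and DSC3 overlapped as neighbours in both control groups (from 1749 to 2061 normalized counts per kb in TIGK and from 2720 to 3466 in HaCaT). With the deposited length all other neighbours in the control groups were apart. With the MANE Select length PKP1 did not stand above PKP3 in every control library, at a ratio of PKP1 to PKP3 between 0.990 and 1.03 in TIGK controls and between 0.978 and 1.12 in HaCaT controls. DSG1 and DSC2 changed places between the lines, since DSC2 was the higher of the pair in TIGK (828 ± 33.2 against 356 ± 31.9 per kb) and DSG1 in HaCaT (1029 ± 131 against 650 ± 46.6). In treated HaCaT that order turned with the MANE Select length (ratio of DSG1 to DSC2 1.24 ± 0.0700 with the deposited and 0.890 ± 0.0504 with the MANE length).

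**Figure D4:**
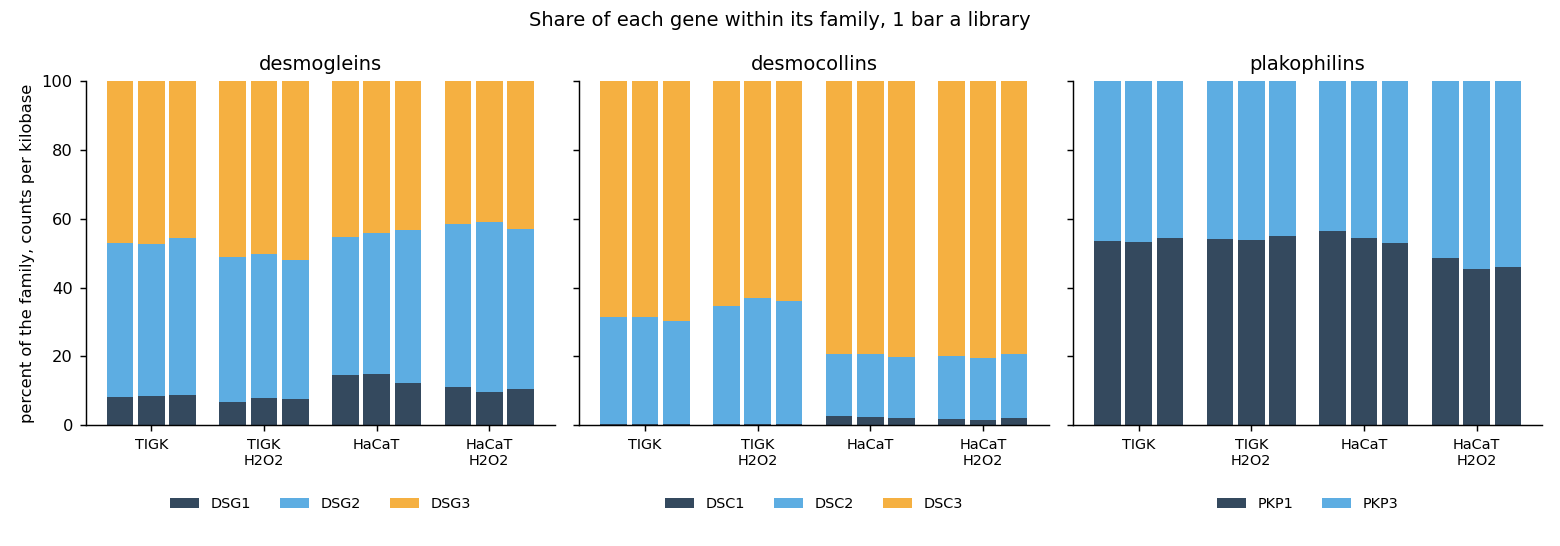
Share of each gene among the members of its family (vertical axis, percent of their summed normalized counts per kilobase of the deposited length), with 1 bar for each of the 12 libraries in 4 groups. DSG1 makes up 13.9% of the summed DSG1, DSG2 and DSG3 in untreated HaCaT and 8.44% in untreated TIGK. PKP1 drops from 54.6% to 46.6% of the summed PKP1 and PKP3 in treated HaCaT.

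The make-up of each family is given as percent of the summed counts per kilobase of its members. DSG4 and PKP2, which are no members, are not in these sums. With the deposited length, the shares of DSG1, DSG3 and the desmocollins did not overlap between the untreated lines. Those of DSG2 and the plakophilins did overlap (PKP1 from 53.3% to 54.4% in untreated TIGK and from 53.0% to 56.3% in untreated HaCaT). With the MANE Select length the shares of DSG3 overlapped as well (from 44.8% to 46.4% in untreated TIGK and from 42.8% to 45.2% in untreated HaCaT). Among the desmogleins DSG1 made up 8.44% ± 0.256 in untreated TIGK and 13.9% ± 1.47 in untreated HaCaT (SD, n = 3), and after H2O2 7.45% ± 0.685 and 10.5% ± 0.717. DSG3 went from 46.7% ± 0.853 to 51.2% ± 0.840 in TIGK and from 44.2% ± 0.985 to 41.8% ± 1.00 in HaCaT, without overlap in either line. DSG2 mirrored it, with 44.9% ± 0.681 and 41.4% ± 1.05 in TIGK and 41.9% ± 2.34 and 47.7% ± 1.38 in HaCaT. The desmoglein make-up thus moved towards DSG3 in TIGK and towards DSG2 in HaCaT, and with the MANE Select length it moved the same ways (DSG3 from 45.7% to 50.1% in TIGK, DSG2 from 45.7% to 51.3% in HaCaT).

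Among the desmocollins DSC3 was the largest in every library, with 68.9% ± 0.573 in TIGK controls and 79.6% ± 0.548 in HaCaT controls. DSC2 rose as a share from 30.8% ± 0.498 to 35.6% ± 1.03 in TIGK, where DSC3 was called lower and DSC2 was not. In HaCaT the share of DSC2 overlapped between the groups, 18.0% ± 0.343 and 18.3% ± 0.362. DSC1 held 2.37% ± 0.217 in untreated and 1.79% ± 0.252 in treated HaCaT, and 0.308% ± 0.0976 and 0.342% ± 0.0831 in TIGK. Of the sum of PKP1 and PKP3, PKP1 held 53.7% ± 0.582 and 54.3% ± 0.518 in TIGK and 54.6% ± 1.68 and 46.6% ± 1.78 in HaCaT.

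Other genes of the desmosome were read from a list of 8, of which 7 passed the filter. The counts of this and the following lists stand beside these shares of all genes tested. After H2O2, 15.2% were lower and 18.9% higher in HaCaT, and 12.9% lower and 10.2% higher in TIGK. For HaCaT against TIGK, 29.1% were higher and 30.8% lower untreated, and 30.2% higher and 29.8% lower after H2O2. In HaCaT 2 of 7 were lower and 1 higher after H2O2, and in TIGK 2 lower and 2 higher. PKP2, the plakophilin of simple epithelia and heart, fell in both lines (log2 fold change -0.32 in TIGK, edgeR adjusted p = 2.85e-04, and -0.50 in HaCaT, edgeR adjusted p = 1.31e-06). Periplakin (PPL), a plakin of the cornified envelope, fell by 0.58 in HaCaT on the log2 scale (edgeR adjusted p = 7.64e-06) and had a log2 fold change of -0.11 in TIGK, and this difference of responses was called (0.48, edgeR adjusted p = 0.00738). PKP4, a relative of the plakophilins, rose by 0.31 in TIGK (edgeR adjusted p = 7.95e-04). KAZN, which encodes kazrin, a partner of periplakin, fell by 0.44 in TIGK (edgeR adjusted p = 0.00370) and rose by 0.48 in HaCaT (edgeR adjusted p = 0.00248), a difference of -0.92 (edgeR adjusted p = 8.24e-04). PERP, a membrane protein of desmosomes and the gene of this list with the most counts, rose in TIGK from 49955 ± 1196 to 57543 ± 331 normalized counts (SD, n = 3; log2 fold change 0.20, edgeR adjusted p = 0.00244) and in HaCaT had 39705 ± 1659 and 39420 ± 288.

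In untreated HaCaT against untreated TIGK, 5 of these 7 were higher and 2 lower, and after H2O2 4 and 2. DSG4, the desmoglein of hair and upper layers, had 3 raw counts over the TIGK control libraries and 274 over the HaCaT controls, a ratio of 82.2 with a counting interval from 27.8 to 401. KAZN had the lowest log2 fold change of HaCaT over TIGK in both conditions, -1.63 untreated (edgeR adjusted p = 2.02e-10) and -0.71 treated (edgeR adjusted p = 1.40e-05). Corneodesmosin (CDSN) was not tested, with at most 7 counts a library.

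Adherens junctions link cells to actin in place of keratin. Of 10 genes of that junction, 6 were lower and none higher in HaCaT after H2O2, and 5 lower and 1 higher in TIGK. Of all genes tested, 15.2% were lower and 18.9% higher in HaCaT, and 12.9% lower and 10.2% higher in TIGK. VCL (vinculin) fell by 0.79 in TIGK (edgeR adjusted p = 2.71e-09) and by less in HaCaT, where it fell by 0.21 (edgeR adjusted p = 0.00362), with a difference of -0.58 (edgeR adjusted p = 6.88e-05). NECTIN4, a nectin, rose by 0.45 in TIGK (edgeR adjusted p = 0.00956) and had a log2 fold change of -0.38 in HaCaT (edgeR adjusted p = 0.0181), a called difference of 0.84 (edgeR adjusted p = 0.00493). In HaCaT the largest fall was that of NECTIN1, which fell by 0.66 (edgeR adjusted p = 1.05e-06). CTNNA1 (alpha-catenin), with the most counts in this list, was not called in either line (log2 fold change -0.08 in TIGK and -0.13 in HaCaT). Between the untreated lines 4 were higher in HaCaT, led by NECTIN2 (log2 fold change 1.13, edgeR adjusted p = 1.19e-09), and 4 lower, led by E-cadherin (CDH1, -0.81, edgeR adjusted p = 3.78e-10), where 29.1% of all genes tested were higher and 30.8% lower. After H2O2 3 were higher and 6 lower, led by the same 2 genes (NECTIN2 1.57 and CDH1 -0.74).

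Hemidesmosomes anchor keratin to the basement membrane. Of 9 of their genes, 6 fell in TIGK and none rose, and 6 fell and 1 rose in HaCaT. PLEC (plectin) had the largest fall in each line, by 1.21 in TIGK (edgeR adjusted p = 5.11e-09) and, as the log2 fold change in HaCaT, -1.52 (edgeR adjusted p = 2.69e-10). CD151, a tetraspanin that binds integrins, rose by 0.27 in HaCaT (edgeR adjusted p = 0.00135). LAMA3, a chain of laminin-332, was the one gene of the list with a called difference of responses (0.35, edgeR adjusted p = 0.00506). Untreated HaCaT had 8 of 9 higher, led by LAMA3 (log2 fold change 1.80, edgeR adjusted p = 9.18e-16), and only PLEC lower (-1.17, edgeR adjusted p = 6.20e-10), and after H2O2 7 were higher and PLEC again lower.

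Tight junctions seal the space between cells. Of 13 genes tested, 2 fell and 3 rose in TIGK, and 3 fell and 2 rose in HaCaT. CLDN4 (claudin 4) rose by 0.84 in TIGK (edgeR adjusted p = 2.39e-06) and had a log2 fold change of 0.05 in HaCaT, a called difference of 0.79 (edgeR adjusted p = 9.39e-04). CGN (cingulin) rose by 0.40 in TIGK (edgeR adjusted p = 0.00931) and fell by 1.01 in HaCaT (edgeR adjusted p = 6.97e-07), a difference of 1.41 (edgeR adjusted p = 7.40e-06). OCLN (occludin) had the largest fall in TIGK, where it fell by 0.69 (edgeR adjusted p = 9.50e-04). CLDN12 had the largest called rise in HaCaT (0.49, edgeR adjusted p = 1.40e-04), though not the highest log2 fold change of the list. TJP1 (ZO-1), with the most counts of the list, fell by 0.68 in TIGK (edgeR adjusted p = 8.47e-09) and fell by 0.65 in HaCaT (edgeR adjusted p = 1.66e-08). Between the untreated lines 5 were higher in HaCaT, led by CGN (1.40, edgeR adjusted p = 1.05e-09), and 5 lower, where 29.1% of all genes tested were higher and 30.8% lower. After H2O2 6 were higher, led by OCLN (1.11, edgeR adjusted p = 1.06e-06), and 5 lower. The lowest was CGNL1 (paracingulin) in both conditions, with 1 raw count over the HaCaT controls against 744 over the TIGK controls.

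**Figure D5:**
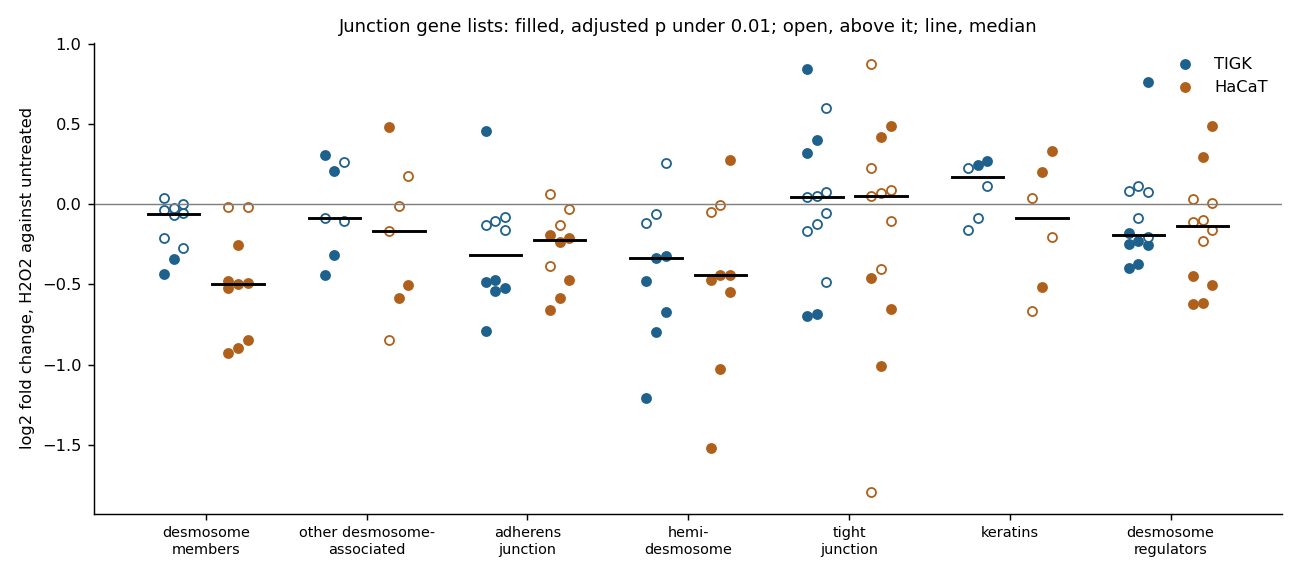
Log2 fold changes after H2O2 (vertical axis) of the tested genes of 7 lists in TIGK (blue) and HaCaT (orange); each point is a gene, filled where called, and black lines are medians. The median of the desmosome members was -0.06 in TIGK and -0.50 in HaCaT, whereas that of the hemidesmosome genes was -0.33 and -0.44.

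Keratins are the filaments that desmoplakin holds. Of 6 keratins of basal and upper layers, 2 rose and none fell in TIGK, and 2 rose and 1 fell in HaCaT. The basal KRT5, the keratin with the most counts, rose in TIGK from 677997 ± 9379 to 802659 ± 11157 normalized counts (SD, n = 3; log2 fold change 0.24, edgeR adjusted p = 5.25e-04) and in HaCaT from 493150 ± 11839 to 566961 ± 31276 (0.20, edgeR adjusted p = 0.00182). Its partner KRT14 had the largest rise of the list, 0.27 in TIGK (edgeR adjusted p = 0.00178) and 0.33 in HaCaT (edgeR adjusted p = 1.80e-04), with the limit that KRT14 shares long stretches with related keratin genes and pseudogenes. The suprabasal KRT1 fell by 0.52 in HaCaT (edgeR adjusted p = 0.00137), from 29108 ± 5833 to 20306 ± 3026. Untreated HaCaT had more KRT1 than TIGK (log2 fold change 3.11, edgeR adjusted p = 7.14e-14) and less of the mucosal KRT13 (-4.23, edgeR adjusted p = 1.72e-16), with 2 of 6 higher and 3 lower in all, and the same counts and leading genes after H2O2 (KRT1 2.68 and KRT13 -4.31).

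The regulators listed were 12 genes, among them transcription factors, a kinase and a calcium pump. In TIGK 6 were lower and 1 higher after H2O2, and in HaCaT 4 lower and 2 higher. TP63, the transcription factor of stratified epithelium, fell by 0.25 in TIGK (edgeR adjusted p = 0.00261) and fell by 0.62 in HaCaT (edgeR adjusted p = 1.18e-07), with a called difference of 0.37 (edgeR adjusted p = 0.00544). HaCaT had 18968 ± 622 normalized counts of TP63 without and 12325 ± 913 with H2O2, and TIGK 10406 ± 477 and 8765 ± 123. GRHL2, a grainyhead-like factor of epithelial junction genes, rose by 0.76 in TIGK (edgeR adjusted p = 1.45e-07) and by 0.48 in HaCaT (edgeR adjusted p = 2.81e-05), the largest rise of the list in both. GSK3B, a kinase that phosphorylates desmoplakin, fell by 0.40 in TIGK (edgeR adjusted p = 6.46e-06), the largest fall of the list in that line, and fell by 0.61 in HaCaT (edgeR adjusted p = 2.46e-08). ATP2A2, the calcium pump mutated in Darier disease and the gene with the most counts in this list, fell by 0.23 in TIGK (edgeR adjusted p = 0.00294) and had a log2 fold change of -0.16 in HaCaT (edgeR adjusted p = 0.0198). Between the untreated lines 4 were higher in HaCaT, led by GSK3B (0.87, edgeR adjusted p = 1.23e-11), and 5 lower, led by GRHL1 (-1.57, edgeR adjusted p = 1.44e-09), and after H2O2 3 were higher and 6 lower, led by the same genes (GSK3B 0.66 and GRHL1 -1.64).

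Markers of other cells moved with the groups in part. The summed level of 5 mesenchymal markers went from between 3906 and 4956 to between 12945 and 13896 normalized counts in treated TIGK, of which SNAI2 made up 97.8%, and from between 7125 and 8026 to between 8607 and 8750 in HaCaT. Of the 5, 3 reached a mean of 10 counts in TIGK and 4 in HaCaT, and none was at 0 in a whole group. The summed level of 6 fibroblast markers went from between 799.8 and 847 to between 926 and 938 in treated TIGK, where 3 markers reached a mean of 10 counts before and 4 after treatment, and lay between 319 and 418 in untreated and between 311 and 396 in treated HaCaT, where 1 did. COL1A1 made up most of it (601 ± 24.2 and 653 ± 26.0 in TIGK), DCN had 197 ± 40.6 and 236 ± 23.7 in TIGK, and the defining fibroblast gene COL1A2 was at 0 in all 4 groups. The summed level of 5 melanocyte markers went from between 427 and 448 to between 578 and 707 in TIGK and from between 151 and 180 to between 208 and 230 in HaCaT. Most of it was MITF, which rose in both lines (log2 fold change 0.57, edgeR adjusted p = 0.00205 in TIGK, and 0.80, edgeR adjusted p = 2.88e-04 in HaCaT), while the defining gene TYR was at 0 in 3 of the 4 groups and had 2 raw counts in treated TIGK. The summed level of the 6 keratinocyte markers lay between 1111448 and 1150234 in untreated and between 1284110 and 1330189 in treated TIGK, and between 1034903 and 1093231 in untreated and between 1128783 and 1253299 in treated HaCaT. The part of SNAI2, of MITF and of these shifts in the values of the desmosome genes was not tested.

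The pattern of 3 members over the 12 libraries was set beside that of the 11772 genes with a mean of at least 100 normalized counts, by Pearson's r on the log2 scale of normalized counts. DSP was most like DDI2 (r = 0.987), KDM5A (r = 0.984) and CBLL1 (r = 0.984). DSG1 was most like RIOK3 (r = 0.989), PLA2G4E (r = 0.989) and DHX36 (r = 0.988), and DSG3 most like BCL2L2 (r = 0.979), SMAD3 (r = 0.978) and UBN2 (r = 0.978). Among the members, JUP and PKP3, the 2 with no call after H2O2 in either line, were the most alike pair (r = 0.994), and DSC2 had a negative r with 7 of the other 9. The 12 libraries fall into 4 groups, so these values describe mostly how the groups differ.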

How the data were processed

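RNA was sequenced from HaCaT and TIGK cells, with or without exposure to 5 mM H2O2 for 3 h (3 libraries per group). The authors deposited raw read counts per gene on GRCh38 with gene lengths. The submitters' processing notes name HISAT2 (2.0.5 and 2.0.0), StringTie (1.3.3b), featureCounts (1.5.0-p3) and DESeq2, and the strand setting of the counting is not given in the sources used here. Tables of the authors' own fold changes and p-values were also deposited and were not used. No count column was without a sample and no row without a gene.

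Counts were fitted with edgeR 4.0.16 (R 4.3.3) by the quasi-likelihood test after TMM, with 1 mean for each of the 4 groups over all 12 libraries. Genes were kept when their raw counts averaged 10 or more (16618 of 58735), and p-values were adjusted by Benjamini-Hochberg over all of them, with a limit of 0.01 as in the study. The steps were tested on simulated data. Normalized counts are raw counts divided by TMM-scaled library size and multiplied by the mean library size, and levels between genes are per kilobase of the deposited length. Intervals of fold changes are 95% intervals of the fit, and the interval of a ratio of counts covers counting error only.

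The members and gene lists were chosen with earlier results of these data known, and the list counts are descriptions. Named were all 10 members, in each other list the gene with the most counts and those with the largest called rise and fall in a comparison, and the 3 genes most like DSP, DSG1 and DSG3, by Pearson's r of log2 CPM with a prior count of 2. PKP2 and CDSN were named after their values were seen. The values of 1 gene under this rule are not reported here, and the list counts include it. The depth was 30426401 to 49034244 counts per library. All 12 replicate pairs differed by more than counting noise (chi-square over degrees of freedom between 4.50 and 29.2). This cannot tell separate cultures from separate libraries of 1 culture. Every library was treated as a replicate. Alternatives were DESeq2 1.42.0, its size factors in edgeR, no filter on low counts, the compared groups alone, a limit of 0.05, a block on the replicate number, leaving out each library, raw counts for shares, and MANE Select lengths of GENCODE v44, the last chosen after seeing the data. Promoters came from RefSeq (GRCh38.p14) and were aligned locally with Biopython (match 1, mismatch -1, gap opening -3, gap extension -1). Figures were drawn with matplotlib.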

Additional observations from a re-analysis of the deposited data

Results flagged for a closer look

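The test of the difference between the H2O2 responses of the lines, as the log2 fold change in TIGK minus that in HaCaT, passed the edgeR adjusted p limit of 0.01 for 12 genes of the lists. Of all genes tested, 2.32% were called with a higher and 2.98% with a lower fold change in TIGK. Among the 10 desmosome members the called ones were DSG3 (0.5602), PKP1 (0.4801), DSC2 (0.4665) and DSP (0.4627), each of them lower in the HaCaT response. The calls of DSC2 and DSP were lost without HaCaT control replicate 1 or without HaCaT control replicate 2. The other genes were PPL (0.4757) of the desmosome-associated genes, NECTIN4 (0.8363) of the adherens junction, LAMA3 (0.3507) of the hemidesmosome, CLDN4 (0.7943) and CGN (1.408) of the tight junction and the transcription factor TP63 (0.3746). KAZN (-0.9169) and VCL (-0.5777) were the 2 genes with the lower fold change in TIGK. Groups of 3 libraries were not searched for outlying samples.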

How the results depend on the processing

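The count of called members kept within 1.5 times its value in untreated HaCaT against TIGK (10 under every alternative), in the response of HaCaT (8, and 7 to 8 when 1 library was left out) and in the lines after H2O2 (8, and 7 to 8), the alternatives being DESeq2, its size factors, no filter, groups alone, a limit of 0.05, the block and leaving out 1 library. Between the treated lines the count was 7 under every alternative but the limit of 0.05 and leaving out HaCaT H2O2 replicate 3. DSG3 was the member lost. In TIGK the 2 called members became 4 with the compared groups alone and 4 at a limit of 0.05, and stayed at 2 to 2 without 1 library. The 4 called differences of the responses ranged from 2 to 5 without 1 library.

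No member that was called changed direction. Over 650 refits of member values, 578 kept direction and side of the limit, 22 lost and 14 gained a call, and 36 near 0 changed sign without a call. These were, on the log2 scale, DSC2 in TIGK (0.0066 with no filter), PKP1 in TIGK (0.0063 with DESeq2, 0.0063 with its size factors and 0.033 with no filter), DSP between the treated lines (-0.0093 with DESeq2, -0.0093 with its size factors and -0.0044 with no filter), JUP in the difference of responses (0.011 with no filter) and PKP3 in that difference (0.0032 with DESeq2, 0.0032 with its size factors and 0.039 with no filter). Without 1 library, the lowest and highest values were -0.22 and 0.16 for DSC1, -0.059 and 0.018 for DSC2 and -0.013 and 0.031 for PKP1 in TIGK, -0.13 and 0.038 for JUP and -0.11 and 0.025 for PKP3 in HaCaT, -0.089 and 0.098 for DSP between the treated lines, and -0.012 and 0.14 for DSG2, -0.10 and 0.092 for JUP and -0.062 and 0.10 for PKP3 in the difference of responses. The cause was not tested.

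Same-numbered libraries did not deviate together over all genes tested (r from -0.032 to 0.026 over 12 pairs, with 4 of 12 best with their own number). A pairing limited to some genes could not be seen in this way. With the replicate number as a block, 2, 8, 10, 7 and 3 members were called in TIGK, HaCaT, the untreated lines, the treated lines and the difference, where DSG3 between the treated lines (edgeR adjusted p = 0.0177) and DSP in the difference (edgeR adjusted p = 0.0220) lost their calls. Over all genes, 881 differences of response were called with edgeR, 1426 with DESeq2, 2019 at a limit of 0.05 and from 537 to 1097 without 1 library, and 3850 and 5998 responses in TIGK at limits of 0.01 and 0.05. With no filter, the share of higher calls went from 44.1% to 54.3% in TIGK and from 43.7% to 59.7% in the difference. The list counts stayed within 1.5 times in 348 of 390 alternatives, among them the main fit at the limit of 0.05. The family shares moved by more than 1 SD in 26 of 32 cases with MANE lengths and in 30 of 32 with raw counts. Leaving out 1 of 3 libraries always moves their mean by less than 1 SD. The 0 of 96 cases that moved without 1 library therefore say nothing about how far the shares rest on single libraries.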
